A study of Mus musculus with 6 samples.

Results

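Ribosome biogenesis and its RNA polymerase, RNA polymerase I (Pol I), were followed through 50 genes in activated CD8 T cells of mice with or without Cre deletion of the transcription factor MondoA. The genes were chosen by symbol for what their proteins do, with earlier results of these data known. All 50 were among the 57010 genes of the count table, and all 50 were among the 16439 genes with enough reads to be tested. MondoA, encoded by Mlxip, is a glucose-responsive transcription factor that binds DNA together with MLX. The 3 WT libraries came from MondoAfl/fl mice, in which the gene is floxed and no Cre is present. The 3 KO libraries came from MondoAfl/fl mice that also carry CD4cre, a transgene that is active in developing T cells and so acts before the mature CD8 T cell. No group had CD4cre without the floxed gene, so an effect of the transgene and an effect of the deletion cannot be told apart. All mice were C57BL/6 and 8 weeks old. The cells were sorted as naive CD8 T cells from spleen and lymph nodes and were activated through CD3 and CD28 with antibodies for 24 hours before RNA was taken. The labels number the libraries and do not say that each is a separate mouse, so the p-values cover only the scatter of these 6 libraries, which may in part be technical.

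Mlxip was lower in every KO library than in every WT library and was not absent there. Its levels were 124, 121 and 142 CPM (counts scaled to the library's size after TMM normalization) in WT 1, 2 and 3, and 79.5, 92.5 and 85.9 CPM in KO 1, 2 and 3, the order in which libraries are given throughout. Which exons are floxed is not given in the labels, and reads from other exons would remain. Whether the deletion was complete in all cells was not tested. With edgeR's quasi-likelihood test its adjusted p was 0.125, and the only genes past the adjusted threshold of 0.05 were Txnip and Arrdc4, known MondoA targets, both lower in KO. The libraries held between 26150420 and 34447230 counted reads. The T cell genes were high in all 6, with Cd8a between 455 and 686 CPM against 0.994 to 4.83 CPM for Cd4. Xist, the transcript of the inactive X chromosome, stood at 737 CPM in WT 3 and 668 CPM in KO 2 and at 0.386 to 1.67 CPM in the other 4 libraries, and the labels give no sex.

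A resting T cell makes few ribosomes, and on activation it enlarges its nucleoli before it divides. Pol I, brought to the ribosomal DNA by UBTF and RRN3, transcribes a long precursor RNA. Small nucleolar ribonucleoproteins (snoRNPs) modify that precursor, and large sets of assembly factors fold and trim it and load ribosomal proteins to give the small and the large subunit. Genes of this pathway are textbook targets of MYC, which with MAX binds the E-box CACGTG, and the MondoA-MLX pair binds carbohydrate response elements built from a pair of E-box-like motifs.

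The start regions of the genes were therefore searched for CACGTG, a palindrome that reads the same on both strands, in windows from 250 bases before to 50 bases after a RefSeq start site (GRCm38.p6). A window was held for 43 of the 50 genes. Of these, 10 genes contained the E-box (23.3%), against 1206 of the 10578 tested genes with a window (11.4%) and 2187 of all 27025 genes with one (8.09%). The E-box and the stretches of up to 12 bases on each side are printed below on the strand of the gene, 5′ to 3′, with CACGTG in capitals, because these are the letters on which the later split of the genes by E-box rests.
Rrn3, chr16:13780472-13780501, plus strand: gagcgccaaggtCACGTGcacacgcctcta
Rrn3, chr16:13780639-13780668, plus strand: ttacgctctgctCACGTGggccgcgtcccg
Mybbp1a, chr11:72441355-72441376, plus strand: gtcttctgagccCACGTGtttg
Wdr43, chr17:71616220-71616249, plus strand: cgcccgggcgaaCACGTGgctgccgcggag
Tsr1, chr11:74898092-74898121, plus strand: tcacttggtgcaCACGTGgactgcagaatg
Utp20, chr10:88826765-88826789, minus strand: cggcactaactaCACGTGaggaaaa
Utp18, chr11:93885769-93885798, minus strand: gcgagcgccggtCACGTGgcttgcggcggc
Ltv1, chr10:13193092-13193121, minus strand: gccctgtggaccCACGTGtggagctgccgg
Nop2, chr6:125131811-125131840, plus strand: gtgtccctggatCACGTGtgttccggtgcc
Pes1, chr11:3963965-3963994, plus strand: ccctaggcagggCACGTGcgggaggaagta
Nle1, chr11:82908355-82908384, minus strand: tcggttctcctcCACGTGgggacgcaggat
Rrn3, the factor that makes Pol I competent to initiate, was the gene with 2 E-boxes in 1 window, starting 215 and 48 bases before its start site. In Nop2 and Utp18 the E-box lay 60 and 20 bases before the start. In the other 7 genes it lay within the first 50 transcribed bases, beginning 3 bases into the Pes1 transcript and 18 bases into that of Wdr43. The full carbohydrate response element, a pair of such motifs at a fixed spacing, was found in 0 of the 43 genes and in 10 of the 10578 tested genes (0.0945%). It was also absent from these windows of Txnip and Arrdc4, so its absence says only that those letters are not in the window. A match is a description of sequence and shows no binding.

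No gene of the 50 passed the test, yet 49 of them had a higher fitted level in KO than in WT. The median log2 fold change, KO against WT, was 0.20 over the 50 genes, against -0.016 over all 16439 genes tested. The genes lie at moderate to high levels, so the 7494 genes that averaged 15 CPM or more, a level chosen after the values were seen, make a nearer background. Their median was 0.040 and 61.5% of them were positive. Scaled by library size alone, 44 of the 50 were positive with a median of 0.14, and Ddx10, Noc3l, Noc4l, Polr1e and Rrn3 then joined Ubtf on the negative side.

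With edgeR's quasi-likelihood test and Benjamini-Hochberg adjustment, 0 of 50 were called, where 0.0122% of all genes were. The smallest adjusted p was 0.365, for Rrp12. An unadjusted p under 0.05 was found for 14 genes, all higher in KO, while 5.05% of all genes and 9.15% of genes at 15 CPM or more met the same mark in that direction. DESeq2 also called 0, with 19 genes under 0.05 unadjusted, all higher in KO, where 3.31% of the 29106 genes it tested were. Those 29106 include genes of low count that the edgeR filter removed, and no share at 15 CPM or more was taken for DESeq2. In 7 of the 50 genes every KO library stood above every WT library, where 7.8% of all genes and 12.4% of those at 15 CPM or more did so. The share among the 50 was thus near that of genes at 15 CPM or more. The 7 genes were Ddx21, Wdr43, Utp14a, Rrp12, Nob1, Pes1 and Noc2l. In 0 of the 50 did every KO library stand below, where 1422 of all 16439 genes and 477 of the 7494 at 15 CPM or more did. Without the filter on low counts, which raised the genes tested to 29109 and the genes called to 511, 9 of the 50 passed, all higher in KO, where 0.842% of all genes did. These 9 were Bysl, Ddx21, Fbl, Ncl, Nop58, Polr1b, Rrp12, Tsr1 and Wdr43, and why the call depends on the filter was not tested.

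Most of the 50 genes shared the same highest and lowest libraries, and their levels differed inside each genotype as well as between the genotypes. Expressed as each gene's log2 CPM minus its mean over the 6 libraries, the median over the 50 genes was -0.16, 0.077 and -0.25 in the WT libraries. In the KO libraries it was 0.31, 0.036 and -0.0081. Thus KO 1 stood highest, WT 3 and WT 1 lowest, and WT 2 above both KO 2 and KO 3, so that the groups overlapped. The heat map of deviations shows this gene by gene.

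**Figure D1:**
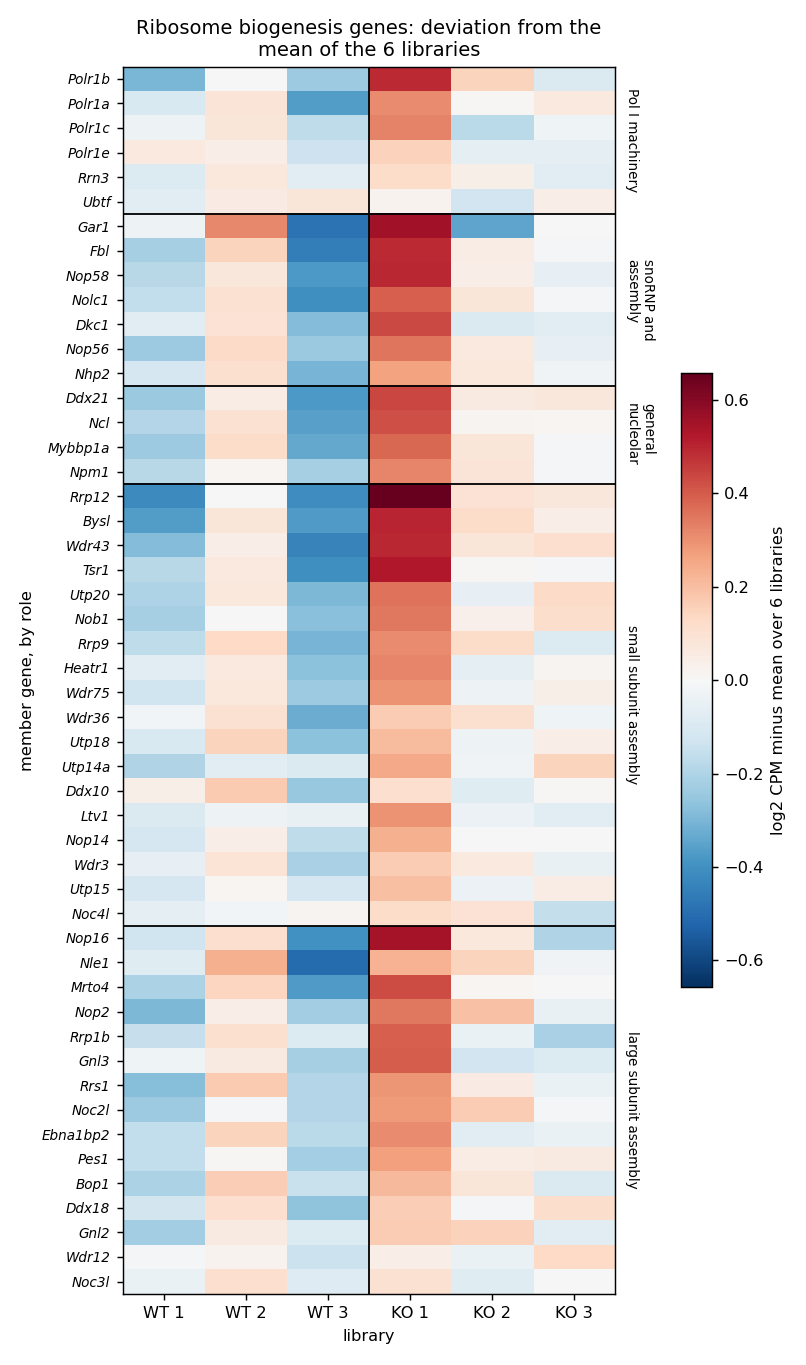
Heat map of each gene's log2 CPM minus its mean over the 6 libraries, with genes in rows grouped by role and libraries in columns. The KO 1 column is the highest for 45 of the 50 genes and the WT 3 column the lowest for 36.

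KO 1 was the highest library for 45 of the 50 genes (90%), against 21.4% of all genes and 31.7% of genes at 15 CPM or more. WT 3 was the lowest for 36 (72.0%), against 20.7% and 29.7%. WT 2 was the highest of the WT libraries for 47 genes (94.0%), against 34.9% of all genes and 45.6% of genes at 15 CPM or more. Some genes departed from this order, among them Ubtf, highest in WT 3, Wdr12, highest in KO 3, and Noc4l, lowest in KO 3, named here after their values were seen. WT 2 exceeded KO 2 for 36 of the 50 genes and KO 3 for 39, against 49.5% and 50.6% of genes at 15 CPM or more. WT 2 was itself exceeded by KO 1 for 46, against 56.9% of genes at 15 CPM or more.

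All 15 pairs of single libraries were compared, with the median difference of the 50 genes on the log2 scale for each. Within WT it was -0.23 for WT 1 minus WT 2, 0.12 for WT 1 minus WT 3 and 0.35 for WT 2 minus WT 3. Within KO it was 0.30 for KO 1 minus KO 2, 0.32 for KO 1 minus KO 3 and 0.013 for KO 2 minus KO 3. For KO minus WT, 7 of the 9 medians were positive. Against WT 1 they were 0.46, 0.18 and 0.15 for KO 1 to 3, and against WT 3 they were 0.55, 0.26 and 0.25. Against WT 2 they were 0.25 for KO 1, -0.054 for KO 2 with 14 of 50 genes positive, and -0.11 for KO 3 with 11 of 50. The differences within a genotype thus covered much of the span of those between genotypes, the widest of which, KO 1 minus WT 3 and KO 1 minus WT 1, exceeded any within a genotype. For genes at 15 CPM or more the 15 medians lay between -0.035 and 0.076. The range within WT exceeded the difference of the group means for 41 of the 50 genes (82.0%) and the range within KO for 44 (88.0%), near the 75% and 79.7% of genes at 15 CPM or more.

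**Figure D2:**
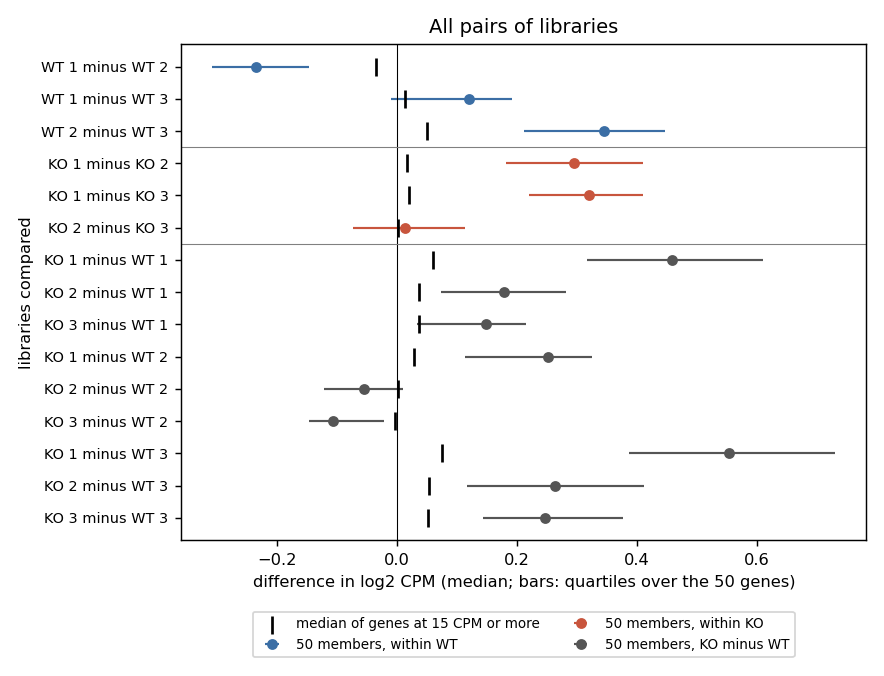
Difference in log2 CPM (horizontal axis) for all 15 pairs of libraries (rows), with a point at the median of the 50 genes, a bar for the quartiles over the genes and a black tick at the median of genes that averaged 15 CPM or more. The pairs within a genotype run from -0.23 to 0.35 and those of KO minus WT from -0.11 to 0.55.

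Added up, the 50 genes took 5850, 6948 and 5455 CPM of the WT libraries and 8380, 6754 and 6606 CPM of the KO libraries. The WT mean was 6084 ± 773.6 CPM and the KO mean 7247 ± 983.9 CPM (SD, n = 3 each), a ratio of 1.19. The sum in KO 1 was 1.54 times that in WT 3, and within WT the sum in WT 2 was 1.27 times that in WT 3. Ncl and Npm1 made up 32.3% of the sum. RNA was measured in bulk, so fewer cells with a high level and a lower level in every cell cannot be told apart.

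The median of the 50 genes depended on single libraries. It was 0.12 without KO 1, with 39 genes positive and 11 negative, 0.13 without WT 3 and 0.32 without WT 2. Without KO 1, 10 genes turned from positive to negative, namely Ddx10, Dkc1, Ebna1bp2, Gar1, Gnl3, Noc3l, Noc4l, Polr1c, Polr1e and Rrp1b, and 28 others came to less than their value with all libraries divided by 1.5. Without WT 3 these numbers were 4 and 22, and without WT 2, 23 genes came to over 1.5 times that value. Under each of the 6 omissions 0 of the 50 genes passed the adjusted threshold, where 2 to 80 of all genes did. Compared within the 4 libraries low in Xist, the median difference was 0.17 with 48 of 50 positive. Between the single pair high in Xist, WT 3 and KO 2, it was 0.26, again with 48 of 50 positive.

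Markers of other cells and states also differed between libraries, and their part in the result was not tested. Summed over each whole list, in counts scaled to the library's total without TMM, 6 B cell markers stood at 247.5 to 399.96 CPM in WT, highest in WT 3, and at 232 to 288 CPM in KO. For 4 CD4 T cell markers the sums were 13.8 to 26.9 CPM and 9.22 to 15.04 CPM, and for 6 NK cell markers 119 to 162 CPM and 110.1 to 118 CPM. The NK sums hide opposite directions. Of the 5 NK markers tested, Eomes had a log2 fold change of 0.40 and the other 4 were negative, with a list median of -0.84. For 7 myeloid markers the sums were 11.4 to 23.7 CPM and 12.8 to 17.3 CPM, and for 5 red cell markers 1.81 to 5.43 CPM and 1.86 to 4.25 CPM. In none of these lists was a marker at 0 in all 6 libraries. The 8 markers of CD8 T cells themselves summed to 2180 to 2598 CPM in WT, highest in WT 2, and to 2412 to 2749 CPM in KO, highest in KO 1, the libraries in which the ribosome biogenesis genes were also highest. The 9 activation markers summed to 1086 to 1230.5 CPM in WT and 859 to 1215 CPM in KO, lowest in KO 3, and 10 genes of S phase and mitosis to 828 to 902 CPM and 863 to 963 CPM.

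The Pol I group held 6 genes, and 0 passed the test. It comprised the subunits Polr1a, Polr1b, Polr1c and Polr1e and the initiation factors Ubtf and Rrn3, and its median log2 fold change was 0.076. The largest difference was in Polr1b (ENSMUSG00000027395), the second-largest subunit, which forms part of the catalytic centre. Polr1b stood at 36.0, 44.2 and 37.6 CPM in the WT libraries and at 62.4, 49.1 and 41.5 CPM in the KO libraries. KO 1 and KO 2 were above all WT libraries and KO 3 was below WT 2. The log2 fold change was 0.38 (SE 0.147), with an adjusted p of 0.410 by edgeR's quasi-likelihood test, and it was 0.21 without KO 1.

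Polr1a encodes the largest subunit and stood at 91.9, 104.5 and 76.3 CPM in WT against 122, 99.1 and 103.0 CPM in KO. Only KO 1 was above WT 2, and the log2 fold change was 0.25 (SE 0.123, edgeR adjusted p 0.487). Polr1c, a subunit shared by Pol I and RNA polymerase III, was at 64.8, 69.95 and 59.1 CPM in WT and 83.05, 58.7 and 65.0 CPM in KO. KO 2 was its lowest library and KO 1 its highest. Polr1e was nearly level, at 17.8 to 20.4 CPM in WT and 18.6 to 21.7 CPM in KO.

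The initiation factors hardly varied. Ubtf (ENSMUSG00000020923), which binds and bends ribosomal DNA and keeps it open, was at 131, 143 and 146 CPM in the WT libraries and at 140.1, 126 and 142 CPM in the KO libraries. It was the gene with a negative log2 fold change, -0.039 (SE 0.0836, edgeR adjusted p 0.883), and had the narrowest spread of the 50, an SD of 0.0819 over the log2 CPM of the 6 libraries. Rrn3, whose window holds the 2 E-boxes, was at 90.8, 101.3 and 91.9 CPM in WT and 104.9, 99.1 and 91.9 CPM in KO, with an SD of 0.0878. Neither separated the genotypes, and neither showed the wide swing between WT 2 and WT 3 seen in most other genes of the list. Over the group, KO 1 was the highest library for 5 of 6 genes and WT 3 the lowest for 2 of 6, and without KO 1 the median log2 fold change was -0.020.

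The 7 snoRNP genes shared one order of libraries at its ends, and 0 of them passed the test. KO 1 was highest and WT 3 lowest for 7 of 7, and the median deviations were -0.16, 0.11 and -0.38 in the WT libraries and 0.43, 0.048 and -0.022 in the KO libraries. In KO against WT the median log2 fold change was 0.24, and 0.12 without KO 1. Fbl, the methyltransferase of the box C/D snoRNPs, which add methyl groups to ribosomal RNA, was at 132, 169.5 and 112 CPM in WT and 215, 158 and 152 CPM in KO. WT 2 lay above KO 2 and KO 3. The log2 fold change was 0.35 (SE 0.165), with an edgeR adjusted p of 0.476.

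Nop56 and Nop58 encode the paired scaffold proteins of the same particles. Nop58 was at 129, 154.5 and 112.8 CPM in WT and 206, 150.9 and 141 CPM in KO. Nop56 was at 149.7, 193 and 149.0 CPM in WT and 226, 184 and 170.0 CPM in KO. Both again had WT 2 between KO 1 and the other 2 KO libraries, and their log2 fold changes were 0.33 and 0.24. Nolc1, a nucleolar chaperone of snoRNPs, was at 150.2, 180.5 and 127 CPM in WT and 221, 178 and 167 CPM in KO, with a log2 fold change of 0.31 and an edgeR adjusted p of 0.463.

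Dkc1, Gar1 and Nhp2 belong to the box H/ACA particles, which convert uridine to pseudouridine. Gar1 had the widest spread of these, at 40.9, 52.1 and 29.8 CPM in WT and 61.4, 32.9 and 41.7 CPM in KO. Its range was 0.80 on the log2 scale within WT and 0.90 within KO, against a log2 fold change of 0.15 (SE 0.234, edgeR adjusted p 0.842). That value was -0.13 without KO 1 and -0.036 without WT 3. Dkc1, the pseudouridine synthase, had a log2 fold change of 0.19, which was -0.0064 without KO 1, and Nhp2 one of 0.20.

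**Figure D3:**
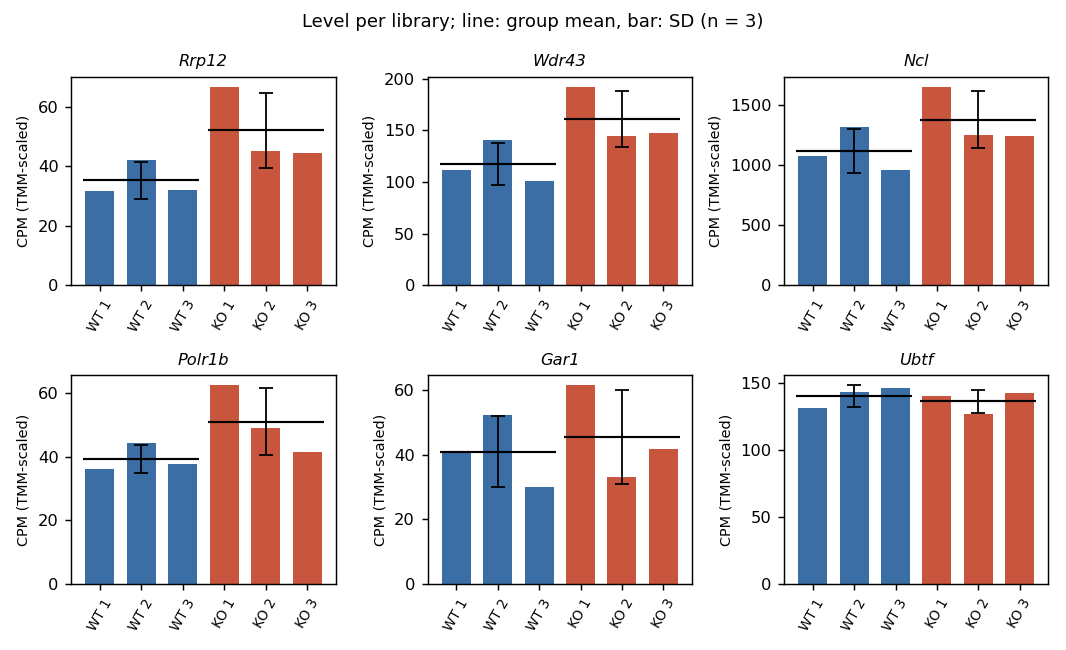
Bars give the TMM-scaled CPM of Rrp12, Wdr43, Ncl, Polr1b, Gar1 and Ubtf in each of the 6 libraries, each panel with its own axis from 0, with a horizontal line at the mean of each genotype and an error bar for its SD (n = 3). KO 1 is the tallest bar in every panel but that of Ubtf, whose bars lie between 126 and 146 CPM.

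The 4 general nucleolar proteins gave the highest median log2 fold change of the 5 roles, 0.30, and 0.17 without KO 1, and 0 of them passed. Per length they are also the most abundant of the list. Ncl (ENSMUSG00000026234), nucleolin, which binds ribosomal DNA chromatin and the precursor RNA, was at 1074, 1317 and 959.4 CPM in WT and 1646, 1245 and 1238 CPM in KO. Npm1 (ENSMUSG00000057113), nucleophosmin, which forms the scaffold of the granular outer zone of the nucleolus, was at 793, 908 and 774 CPM in WT and 1125, 956 and 893 CPM in KO. In Ncl, WT 2 stood above KO 2 and KO 3, and in Npm1 it stood above KO 3 alone. The edgeR adjusted p was 0.461 for Ncl (log2 fold change 0.30, SE 0.136) and 0.397 for Npm1 (0.27, SE 0.0997). Npm1 has processed copies elsewhere in the genome, and how the counting treated reads with several positions is not given in the sources used here.

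Ddx21 (ENSMUSG00000020075), an RNA helicase that works on Pol I transcripts and snoRNAs, was 1 of the 7 genes without overlap between the groups. It was at 305, 374 and 278 CPM in the WT libraries and at 489.7, 376 and 380.1 CPM in the KO libraries. WT 2 and KO 2 were separated by less than the differences inside either group. The means were 319 ± 49.2 CPM and 415 ± 64.4 CPM (SD, n = 3 each), with a log2 fold change of 0.38 (SE 0.131) and an edgeR adjusted p of 0.379. Mybbp1a, a nucleolar protein that restrains Pol I transcription, was at 326, 417 and 305 CPM in WT and 499.6, 406 and 383 CPM in KO, with a log2 fold change of 0.30.

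The small-subunit assembly factors were the largest role, with 18 genes, of which 0 passed and 18 had a positive log2 fold change, at a median of 0.19 and, without KO 1, of 0.11. Those with the smallest p act at different stages, from the first processome on the nascent precursor to the last cleavage in the cytoplasm. Rrp12 (ENSMUSG00000035049), a HEAT-repeat protein needed for late maturation and export, had the largest difference of all 50 genes. It was at 31.5, 42.2 and 31.8 CPM in the WT libraries and at 66.6, 45.1 and 44.4 CPM in the KO libraries. All 3 KO libraries were above all 3 WT libraries, with KO 2 and KO 3 close to WT 2 and KO 1 far above. The fold change was 1.48, or 0.56 on the log2 scale (SE 0.172), with an adjusted p of 0.365 by edgeR and 0.0554 by DESeq2. Over the 6 omissions of 1 library its log2 fold change lay between 0.35 and 0.72. Rrp12 also had the widest spread over the 6 libraries, an SD of 0.397.

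Wdr43 (ENSMUSG00000041057), a subunit of the part of the processome that also serves Pol I transcription, was at 112, 140.5 and 100.6 CPM in WT and 192, 144 and 147 CPM in KO. The groups did not overlap, although WT 2 and KO 2 were nearly level. The log2 fold change was 0.45 (SE 0.142), with an adjusted p of 0.368 by edgeR and 0.0756 by DESeq2. Bysl, which acts in the late nuclear steps, was at 33.6, 45.8 and 33.5 CPM in WT and 61.3, 47.2 and 44.8 CPM in KO, and WT 2 lay above KO 3. Nob1, the endonuclease that makes the final cut of the small-subunit RNA, was at 57.8, 67.2 and 55.6 CPM in WT and 85.5, 68.9 and 73.0 CPM in KO. Its groups did not overlap, and its log2 fold change was 0.33 (SE 0.108, edgeR adjusted p 0.373).

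Of the other small-subunit factors with an E-box, Tsr1 had a log2 fold change of 0.36 and Utp20 of 0.29, while Utp18 and Ltv1 had 0.14 and 0.13. Tsr1 resembles a GTPase and holds the late precursor in place. It was at 63.5, 75.1 and 54.4 CPM in WT and 103.6, 72.3 and 71.5 CPM in KO, so that WT 2 exceeded 2 of the 3 KO libraries. Ltv1, a late assembly and export factor, was at 28.8, 30.0 and 29.7 CPM in WT and 37.7, 29.85 and 29.1 CPM in KO, level in all libraries but KO 1. At the other end of the role was the helicase Ddx10, with the smallest log2 fold change of the 18, 0.015, and levels of 62.7 to 83.8 CPM in WT and 70.5 to 80.3 CPM in KO. The remaining 9 genes, Wdr75, Heatr1, Utp15, Wdr3, Wdr36, Utp14a, Nop14, Noc4l and Rrp9, had log2 fold changes from 0.046 to 0.25.

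The 15 large-subunit assembly factors had a median log2 fold change of 0.18, and of 0.096 without KO 1, with 15 positive and 0 past the test. Noc2l, which escorts the early precursor of the large subunit through the nucleolus, was at 109, 127.5 and 112.5 CPM in WT and 156, 145 and 128 CPM in KO. Every KO library was above every WT library, with KO 3 and WT 2 nearly equal. The log2 fold change was 0.30 (SE 0.0979, edgeR adjusted p 0.373). Pes1, which forms the PeBoW complex with Bop1 and Wdr12, was at 96.4, 108 and 92.4 CPM in WT and 129.9, 111.5 and 112 CPM in KO, again without overlap and with a log2 fold change of 0.25. Its partners showed smaller log2 fold changes, 0.13 for Bop1 and 0.085 for Wdr12, and both overlapped between the genotypes.

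Nop2, a methyltransferase of the large-subunit RNA, was at 82.4, 104.1 and 86.2 CPM in WT and 128, 115 and 97.6 CPM in KO. KO 3 lay below WT 2, and the log2 fold change was 0.32 (SE 0.120, edgeR adjusted p 0.394). Mrto4, which holds the place of the stalk protein P0 on the maturing large subunit, was at 31.9, 40.65 and 28.5 CPM in WT and 49.6, 37.2 and 36.9 CPM in KO. Noc3l, by contrast, was flat, at 45.1, 50.2 and 43.9 CPM in WT and 49.96, 44.1 and 46.6 CPM in KO, with a log2 fold change of 0.014 (SE 0.0944, edgeR adjusted p 0.970). The other 10 genes, Nop16, Bop1, Wdr12, Rrp1b, Rrs1, Ebna1bp2, Ddx18, Gnl3, Gnl2 and Nle1, had log2 fold changes from 0.085 to 0.30, and 0 of them separated the groups.

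**Figure D4:**
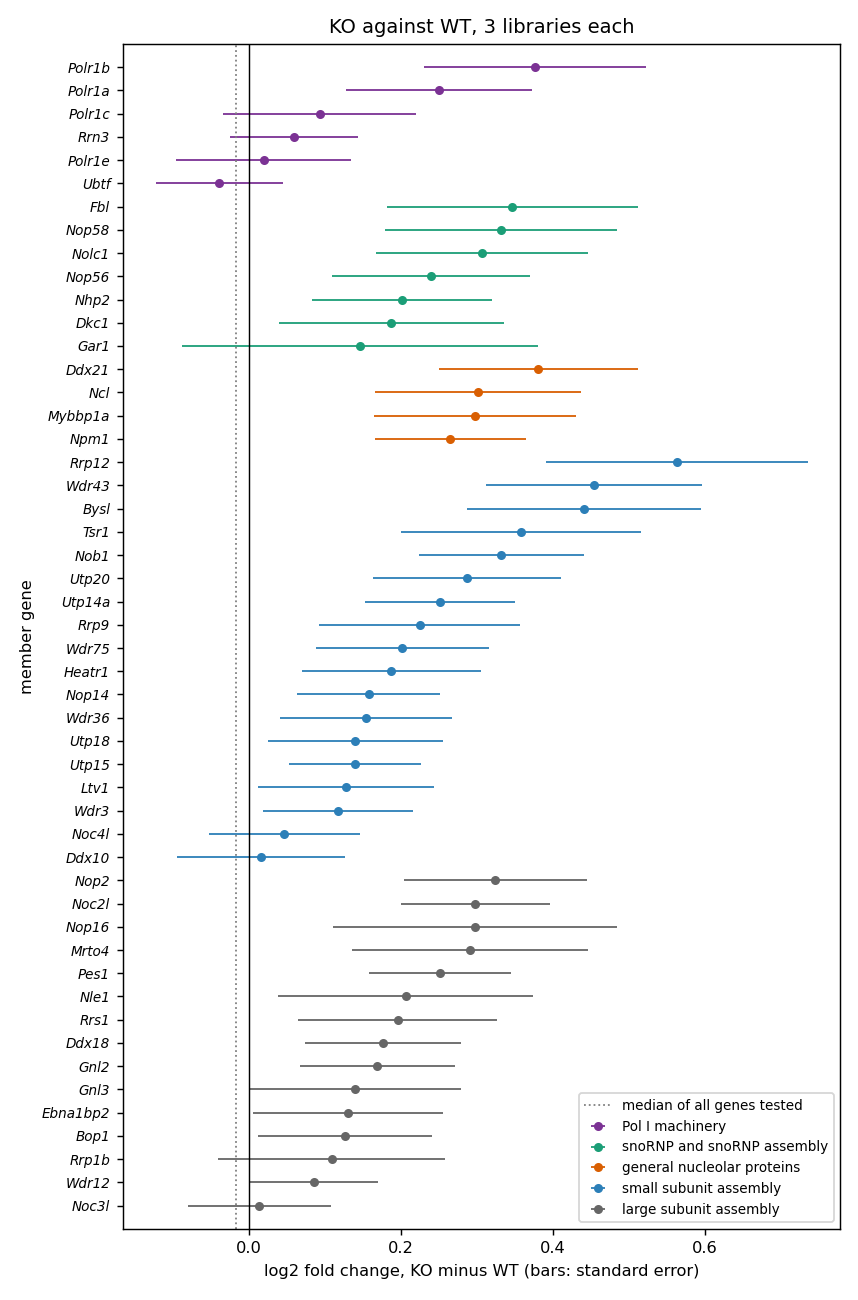
Log2 fold change, KO against WT, of each of the 50 genes (points, horizontal axis) with its standard error (bars), coloured by role, with a dotted line at the median of all genes tested. The values run from -0.039 for Ubtf to 0.56 for Rrp12, and 49 of the 50 lie above 0 while 0 pass the adjusted threshold.

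The 141 other genes of the pathway that were tested were likewise highest in KO 1 and lowest in WT 3 at the median, with smaller deviations. Of these 0 passed by edgeR, 15 had an unadjusted p under 0.05 (10.6%, against 10.8% of all genes and 13.8% of those at 15 CPM or more), 119 were positive and 22 negative, and the median log2 fold change was 0.12. KO 1 was the highest library for 89 (63.1%) and WT 3 the lowest for 75 (53.2%). The median deviations were -0.072, 0.045 and -0.15 in the WT libraries and 0.18, -0.013 and 0.0096 in the KO libraries. DESeq2 called 2 of the 141, Ddx24 and Ddx54, both higher in KO, where it called 1.05% of the 13567 genes to which it gave an adjusted p.

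Taken by list, the other small-subunit factors had 34 of 38 positive at a median of 0.12, and the other large-subunit factors 41 of 44 at a median of 0.14. The other snoRNP factors had 9 of 11 positive at a median of 0.13. The other Pol I subunits and factors had 9 of 14 positive at 0.068, and without KO 1 that median was -0.0094. The RNA polymerase III genes, whose enzyme makes the small 5S ribosomal RNA and transfer RNAs, had 15 of 20 positive at 0.078, and the nuclear exosome and its partner nucleases, which trim and destroy precursor RNA, 11 of 14 at 0.074. In the RNA polymerase III list the libraries differed least, with median deviations between -0.071 and 0.061.

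**Figure D5:**
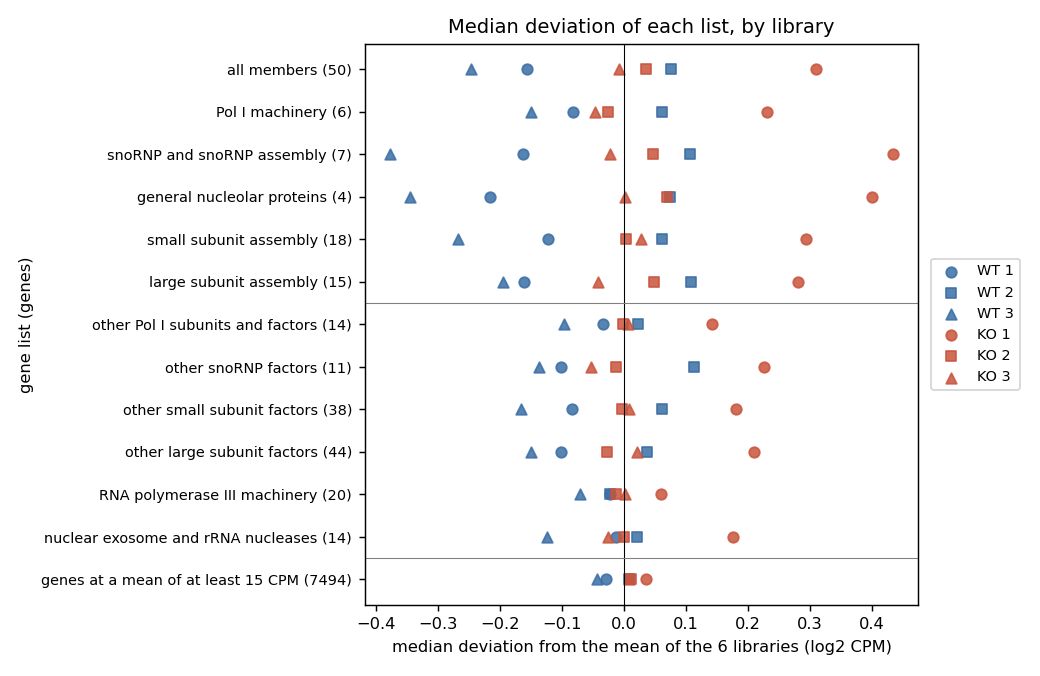
Median deviation of log2 CPM from the mean of the 6 libraries (horizontal axis) for the 50 genes, their 5 roles, the 6 lists of other pathway genes and genes at 15 CPM or more (rows, with the number of genes), 1 symbol for each library. KO 1 lies furthest right and WT 3 furthest left in every row, and the RNA polymerase III row spans only -0.071 to 0.061.

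Of the other genes, Ddx54, a nucleolar helicase, had the smallest p and a narrow spread within each genotype. It was at 109, 106 and 109 CPM in the WT libraries and at 137, 138 and 134 CPM in the KO libraries. The 2 groups were separated by more than the differences inside them. The means were 108 ± 2.04 CPM and 136 ± 1.84 CPM (SD, n = 3 each), with a log2 fold change of 0.34 (SE 0.0713). Its adjusted p was 0.329 by edgeR and 0.0205 by DESeq2. Among the Pol I subunits, Cd3eap was at 15.3, 14.96 and 13.8 CPM in WT and 22.6, 17.4 and 19.0 CPM in KO, with a log2 fold change of 0.42 and an edgeR adjusted p of 0.367. Tcof1, Nol6 and Exosc10, the genes of smallest p among the other snoRNP factors, the other small-subunit factors and the exosome genes, had edgeR adjusted p of 0.386 or more.

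Per kilobase of merged exons, the scale on which genes can be set beside each other, the 50 genes lay between 5.02 and 340.8 CPM per kb with a median of 19.4, against 3.49 for all genes tested. Npm1 was highest at 340.8 CPM per kb, followed by Ncl at 122, Ddx21 at 70.9 and Mybbp1a at 67.1. Among the assembly factors Ddx18, Noc2l, Nop2 and Nop14 stood at 54.0, 45.2, 36.9 and 36.4 CPM per kb. Within Pol I, Polr1c at 29.3 CPM per kb stood above Polr1a at 8.38, Polr1b at 7.78 and Polr1e at 5.02. Merged exons include retained introns of any annotated transcript, which lowers the level per length of genes such as Ncl. The lowest count of any of the 50 genes in any library was 459 reads, in WT 3 for Nle1.

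The genes were also described by features that the choice of the list did not use. Small nucleolar RNA genes lie inside 7 of the 50 (14%), namely Nop56, Nop58, Dkc1, Ncl, Wdr43, Tsr1 and Gnl3, which together hold 21. They lie inside 279 of all 22028 annotated protein-coding genes (1.27%), whether expressed here or not. The share over the tested genes, a nearer background, was not taken. The median log2 fold change of these 7 hosts was 0.30, and 0.20 for the other 43. The 10 genes with an E-box had a median log2 fold change of 0.27, and the 33 with a window and no E-box 0.19. On both sides of both splits KO 1 was the highest library for most genes. It was so for 7 of the 7 hosts and 38 of the 43 others. It was also so for 9 of the 10 genes with an E-box and 29 of the 33 without. Exons of 22 of the 50 genes overlap a gene on the opposite strand, such as Bysl with Ccnd3 and Nop56 with Idh3b, and reads of such pairs cannot be told apart where strand was not used in counting.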

How the data were processed

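RNA was measured by sequencing of mRNA libraries from 6 samples of CD8 T cells (3 WT, 3 KO). The authors deposited unnormalized read counts, as whole numbers for each Ensembl gene, made with HISAT2, Subread and featureCounts on GRCm39, per the submitters' processing notes. Not given in the sources used here are versions, the annotation, whether strand was used and how multiply aligned reads were handled, so overlapping genes and near-identical copies may share or lose reads. Symbols (52081 of 57010 genes), exon lengths and snoRNA hosts came from GENCODE M21 on GRCm38, and promoter sequence from RefSeq on GRCm38.p6. None of their coordinates were joined to the counts.

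Genes were kept by filterByExpr (minimum count 10, minimum total 15), scaled by TMM and tested with edgeR 4.0.16 in R 4.3.3 (glmQLFit and glmQLFTest, two-sided, genotype as the only term). Adjustment was by Benjamini-Hochberg over the 16439 genes tested, with a threshold of 0.05. DESeq2 1.42.0 was an alternative, beside other scaling, filters, omission of each library and a replicate block. Further settings were removal of a trend with length, GC and level, and a term for Xist class. That term set WT 3 and KO 2, high in Xist, apart from the rest, as the labels give no sex. Values per library are TMM-scaled CPM, and deviations use log2 CPM with a prior count of 2. The common biological coefficient of variation was 0.166, and the standard error of log2 fold changes had a median of 0.113 over the 9864 genes at 5 CPM or more. An exact permutation test of 3 against 3 cannot go below 0.1 and was not used. The procedure was also run on simulated counts, whose outcome is not reported here. No 2 replicates agreed within sampling noise, with chi-square per gene from 16.0 to 40.4 over 12177 genes.

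The members, roles and lists of other genes were chosen with earlier results of these data known. Named genes were, in each role, the 4 of smallest p and the 2 of highest level per length, the extremes of fold change and of spread, and genes with an E-box, and, in each other list, the gene of smallest p, of which 1 is not reported here. Some other genes given with values were chosen after their values were seen, as were those listed by name for groups without overlap. The former were Cd8a, Cd4, Xist, Eomes, Polr1e, Dkc1, Bop1, Wdr12, Ddx24, Gnl3, Ebna1bp2, Rrp1b, Noc4l, Myc, Mki67, Mcm5 and Mcm2.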

Additional observations from a re-analysis of the deposited data

How the results depend on the processing

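The count of 0 among the 50 genes was also found with RLE scaling, library size alone, a mean of at least 5 CPM and DESeq2. A term for Xist class and each omission of 1 library gave 0 as well, and no filter on low counts gave 9. Over all genes the count of 2 was 511 with no filter and 142 with DESeq2. It was 6 with a term for Xist class (chosen after seeing the data, 0 higher and 6 lower). Over the omissions it ran from 2 to 80, with 80 without KO 3. For the 141 other pathway genes the count of 0 was 3 with no filter (Nifk, Ddx54 and Ddx24) and 2 with DESeq2. The cause was not tested. The median of the 50 genes stayed positive throughout, from 0.12 without KO 1 to 0.32 without WT 2, at 0.17 for genes of at least 5 CPM, 0.22 with RLE scaling and with DESeq2, and 0.135 after trend removal, which gives no test.

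Replicate numbers are shared by the genotypes, but same-numbered samples did not deviate together (correlations of -0.0057, -0.19 and -0.047 for numbers 1 to 3), and no sample correlated best with its own number. With the replicate block the counts were 2 over all genes and 0 of 50. The median of the 50 genes was then 0.20, or 0.14 with trend removal as well.

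Some log2 fold changes turned sign. With library size alone they were -0.049 for Ddx10, -0.051 for Noc3l and -0.0071 for Rrn3, and for genes of at least 5 CPM -0.013 for Ddx10 and -0.015 for Noc3l. Polr1e also turned negative in both settings, and Noc4l with library size alone. After trend removal Ddx10, Noc4l and Polr1c turned negative. Over the omissions the log2 fold changes ran from -0.094 to 0.12 for Ddx10, from -0.13 to 0.37 for Gar1, from -0.033 to 0.082 for Noc3l, from -0.061 to 0.20 for Polr1c and from -0.080 to 0.014 for Ubtf. The lowest values over the omissions were -0.0064 for Dkc1, -0.049 for Gnl3, -0.0010 for Ebna1bp2, -0.083 for Rrp1b, -0.0026 for Noc4l and -0.054 for Polr1e. Depth limits none of the 50, whose lowest count was 459 reads.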

Other observations

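Growth and cycle genes outside the ribosome pathway differed among themselves in their order of libraries. Myc, the transcription factor best known for driving ribosome biogenesis genes, was at 85.5, 89.3 and 114 CPM in the WT libraries and at 75.4, 108 and 63.5 CPM in the KO libraries, with a log2 fold change of -0.23 and an edgeR adjusted p of 0.664. WT 3, the library in which most of the 50 genes were lowest, had the highest Myc level, and KO 1, in which they were highest, had the second lowest. Mki67, a marker of cycling cells, was at 69.3, 56.1 and 101 CPM in WT and 42.1, 63.9 and 65.6 CPM in KO, again highest in WT 3 and lowest in KO 1. Mcm5, a subunit of the replicative helicase that is made before S phase, was at 94.3, 107 and 102 CPM in WT and 152, 123 and 112 CPM in KO, and was highest in KO 1. Mcm2 was at 123, 152 and 111 CPM in WT and 173, 138 and 130 CPM in KO. It was highest in KO 1 and lowest in WT 3, as most of the 50 genes were. KO 1 was the highest library for 4 of the 9 activation markers and 5 of the 10 genes of S phase and mitosis. WT 3 was the lowest for 0 and 2 of them. Of genes at 15 CPM or more, KO 1 was highest for 31.7% and WT 3 lowest for 29.7%. Myc, Mki67, Mcm5 and Mcm2 were named after their values were seen, and no relation between them and the 50 genes was tested over these 6 libraries.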
